A study of Mus musculus with 15 samples.

Results

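Tubulin and kinesin genes were followed in mouse embryonic stem cells (mESC) in which the chromatin remodelling subunit Smarcb1 was knocked down. Members were all genes of the deposited tables whose symbol starts with Tuba, Tubb, Tubg, Tubd or Tube and a digit, with Kif and a digit, or with Kifc, leaving out 6 symbols that contain "-ps". The rule took 63 of 55228 genes, namely 19 tubulin genes, 42 kinesin genes and 2 genes that encode neither, the kinesin-binding protein gene Kif1bp and the RNA gene Kif16bos. Of these, 56 had a mean of at least 10 reads per library and were followed, comprising 16 tubulin genes, 39 kinesin genes and Kif1bp. The 7 others were Tuba3b with 1 to 9 reads per library, Kif19a with 0 to 10, Tuba8 with 0 to 5 and Tubb1 with 0 to 3, and Kif12, Kif2b and Kif16bos, which were at 0 reads in all 15 libraries.

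Microtubules are hollow polymers of alpha and beta tubulin dimers. Most vertebrate genomes carry several alpha and several beta tubulin genes (isotypes), some expressed almost everywhere and some, such as Tubb3, known as markers of neurons, while gamma tubulin nucleates microtubules at the centrosome. Kinesins are ATP-driven motors, most of which walk along microtubules. Some build the mitotic spindle or drive cytokinesis and are high in dividing cells such as mESC, others carry vesicles, mitochondria and mRNA, and others act in the primary cilium.

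All 15 libraries came from the line 81K1, which is based on OG2 mESC and goes back to 1 clone (K1) with an shRNA cassette against Smarcb1 in the Rosa26 locus, transcribed from a doxycycline-dependent promoter. Untreated cells of this line (ctrl) were sampled at 48 h and at 240 h, and cells given 1 µg doxycycline per ml every day (kd) after 48 h, 72 h or 240 h. Each of the 5 groups had 3 libraries. All groups therefore carried the cassette, and they differed in doxycycline, shRNA expression and time. Doxycycline-treated cells without the shRNA were not analysed here, so that effects of doxycycline and of the knockdown cannot be told apart. The labels do not say whether replicates were separate cultures, and p-values measure the spread between these libraries only.

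The libraries held 11074998 to 14515300 reads, of which the members took 0.596% to 0.723%. Smarcb1 was at 3.31 to 3.93 FPKM in the 6 ctrl libraries and at 0.503 to 0.820 FPKM in the 9 kd libraries, with log2 fold changes of -2.50, -2.67 and -2.37 after 48 h, 72 h and 240 h. The summed level of 6 stem cell markers, among them Pou5f1, Sox2 and Nanog, was 4325 to 4621 RPM (reads scaled to the library total) in the ctrl libraries, 4081 to 4490 at 48 h kd, 4353 to 4436 at 72 h kd and 3492 to 3511 at 240 h kd. Esrrb was at 5.02 to 5.22 FPKM at 240 h ctrl and 2.92 to 2.98 at 240 h kd. In the same groups Zfp42 was at 48.2 to 51.3 and 32.3 to 33.7, and Tfcp2l1 at 11.3 to 12.4 and 8.90 to 9.51. Sox2 was at 301 to 320 and 248 to 258, and Nanog at 62.8 to 64.8 and 59.1 to 61.5. Pou5f1 overlapped, at 238 to 282 and 239 to 250. The 48 h kd library of replicate 2 stood apart. It had 2.53% mitochondrial reads against 0.507% to 1.95% in the other libraries, and within its group it was the lowest library for 13 of 16 tubulins and the highest for 25 of 39 kinesins. Replicate 1 of 48 h ctrl was likewise the lowest of its group for 11 tubulins and the highest for 25 kinesins, and replicate 1 of 240 h ctrl for 12 and 27. Calls at 48 h that change without the kd library are given with and without it.

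Upstream sequences are shown for members that the results below turn on. Kif26b, Kif5c and Tubb4a were lower at all 3 knockdown times, and Kif11 and Kif22 are spindle kinesins whose windows hold a pair of motifs. Kif11 and Kif22 were picked because they were also lower at 72 h by the adjusted p, so that their motifs say nothing about expression. Kif14 holds both motifs too, but its window lies 1505 bases from the GENCODE gene start and is not shown. The windows are the 250 bases before the RefSeq transcription start on GRCm38.p6, cut where a GENCODE exon of the gene begins. Capitals mark the CCAAT box (CCAAT or ATTGG) and the cell cycle homology element (TTTGAA or TTCAAA), both of which are known from promoters of genes expressed in dividing cells. Either strand was searched, and the end base of a hit of one motif can belong to a hit of the other. The sequences run 5′ to 3′ on the strand of the gene, at chr1:178528875-178529124 (plus strand), chr2:49619036-49619285 (plus), chr17:57087783-57087850 (minus), chr19:37376132-37376381 (plus) and chr7:127042472-127042670 (minus).
Kif26b: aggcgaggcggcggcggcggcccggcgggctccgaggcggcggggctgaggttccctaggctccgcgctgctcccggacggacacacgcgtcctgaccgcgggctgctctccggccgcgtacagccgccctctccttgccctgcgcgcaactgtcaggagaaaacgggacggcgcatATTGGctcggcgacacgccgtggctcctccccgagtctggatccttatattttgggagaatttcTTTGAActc
Kif5c: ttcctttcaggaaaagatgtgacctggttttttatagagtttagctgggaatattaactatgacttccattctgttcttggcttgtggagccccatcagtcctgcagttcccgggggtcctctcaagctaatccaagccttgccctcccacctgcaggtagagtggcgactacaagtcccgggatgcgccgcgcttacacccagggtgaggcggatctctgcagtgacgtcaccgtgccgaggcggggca
Tubb4a: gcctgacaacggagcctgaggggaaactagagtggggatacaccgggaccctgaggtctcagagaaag
Kif11: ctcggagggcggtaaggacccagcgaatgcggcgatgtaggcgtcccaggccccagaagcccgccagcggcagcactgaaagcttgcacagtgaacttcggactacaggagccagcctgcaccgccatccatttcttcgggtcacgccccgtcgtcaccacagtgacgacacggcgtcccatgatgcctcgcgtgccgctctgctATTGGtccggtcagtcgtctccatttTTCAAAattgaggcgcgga
Kif22: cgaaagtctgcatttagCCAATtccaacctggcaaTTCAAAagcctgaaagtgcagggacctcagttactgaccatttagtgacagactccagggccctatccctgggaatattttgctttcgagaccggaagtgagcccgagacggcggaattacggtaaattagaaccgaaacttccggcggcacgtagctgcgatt

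A RefSeq window was at hand for 44 of the 55 tubulin and kinesin genes followed. CCAAT was found in 22 of the 44 windows (50%), compared with 33.8% of 32851 windows of all genes, and TTTGAA in 8 (18.2%), compared with 16.0%. The members' windows had a median GC content of 61.8% and 20 CpG sites, compared with 52.4% and 6 in all windows. Each member gave only the window nearest its GENCODE start and had at least 10 reads on average. The windows of all genes included any alternative starts and genes whatever their expression. These shares are therefore not like for like, and the differences cannot be read as a trait of tubulin and kinesin promoters. Among 13 spindle kinesins with a window, 8 held CCAAT and 5 held TTTGAA, while among 11 cargo kinesins 3 held CCAAT and none held TTTGAA. Among the spindle windows with TTTGAA, that of Kif14 lies 1505 bases from the GENCODE gene start and that of Kif2c 3867. The Kif2c window does not open an annotated transcript of the gene. The window of the cilium-linked Kif27, which also holds TTTGAA, lies 4175 bases from its gene start. Within 500 bases of that start, a limit set with the values known, 7 of 11 spindle windows held CCAAT and 3 held TTTGAA, and 5 of 39 windows of all members held TTTGAA. The window of Kif26b holds 1 copy of each motif, with the TTTGAA close to the start site. Neither motif was found in the windows of Kif5c, Tubb4a or Tuba4a, the latter lying within annotated exons and not printed. These matches describe letters and not bound sites.

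Expression levels between genes were compared in RPM per kilobase of annotated exon. Since the deposited values appear to count reads over the whole gene span, introns included, an inference from the values, these levels would contain intronic reads. Tubb5, the main beta tubulin of dividing cells, was highest with a mean level of 646 over the 15 libraries (range 535 to 726). It was followed by Tubb4b with 192 and by the alpha tubulins Tuba1a with 142 and Tuba1b with 132, whose ranges of 110 to 186 and 108 to 150 overlapped. Next came Tubb2b with 83.0 and Tubb3 with 71.5. The highest kinesins were Kif20a (mean level 66.4), which acts in cytokinesis, Kif2c (39.4), a microtubule depolymerase of the centromere, Kif22 (34.3), which binds chromosomes, Kif5b (33.3), the widely expressed heavy chain of conventional kinesin, and Kif20b (32.5). Cdc23 overlaps Kif20a on the opposite strand, and 23.3% of the 75-base windows of Kif20a exons are also found in it. Cdc23 reads may therefore enter the level and fold changes of Kif20a. The lowest member followed was Kif26b with 0.115. Among the 12 highest members, 9 were tubulins and 3 were kinesins, namely the spindle or cytokinesis motors Kif20a, Kif2c and Kif22.

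**Figure D1:**
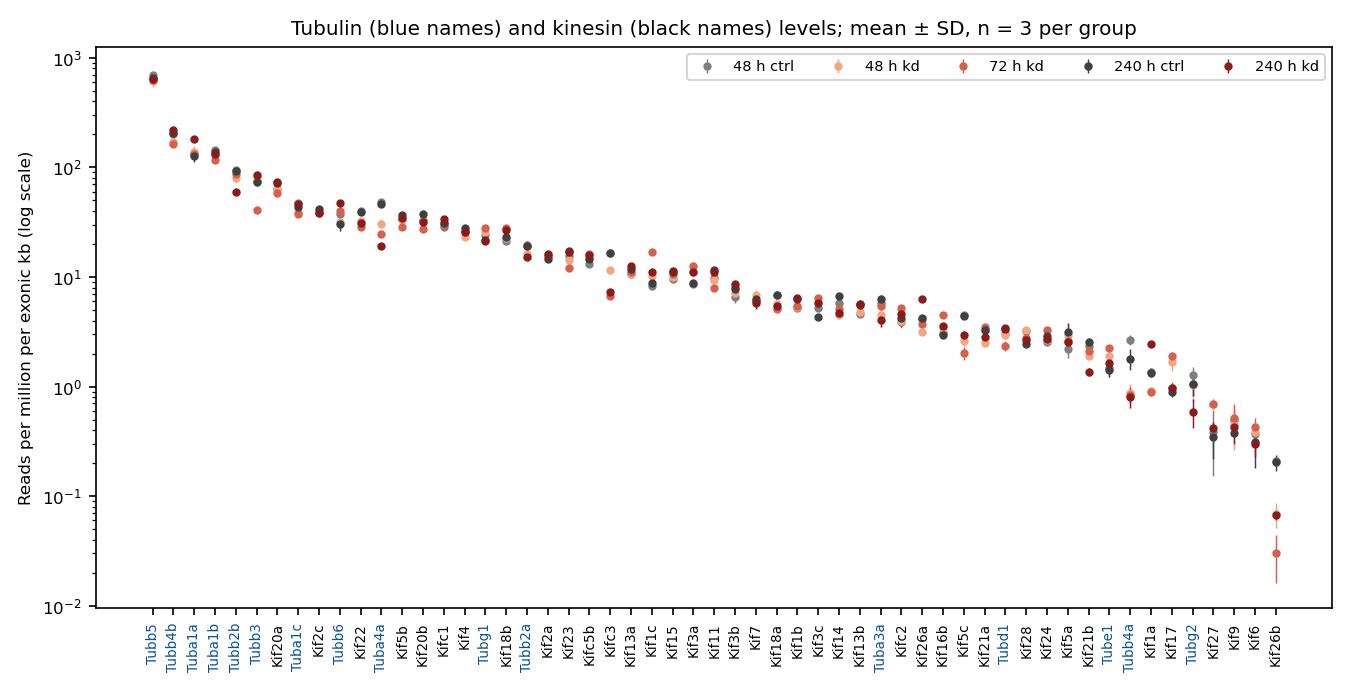
Mean level ± SD (n = 3 libraries) of the 55 tubulin and kinesin genes followed, in RPM per exonic kilobase on a log axis, with 1 point per group and genes ordered by their mean over all libraries. Tubb5 lies highest (mean 646) and Kif26b lowest (0.115), and for most genes the 5 groups lie close together.

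At 48 h of knockdown, 5 of the 56 members were called, that is, had an adjusted p below 0.05 and an absolute log2 fold change above 0.58 in limma. Of these 1 was higher (Kif17) and 4 were lower (Tuba4a, Tubb4a, Kif5c and Kif26b), against 4.33% and 4.92% of all 16108 genes tested. For 72 h kd the 48 h ctrl served as the control, as no 72 h ctrl was analysed here, and 4 members were called higher and 7 lower, against 12.3% and 10% of 16146 genes. At 240 h, 3 were called higher and 9 lower, against 9.78% and 7.99% of 16633 genes. In bulk RNA, fewer cells of a type and less RNA per cell cannot be told apart.

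Without the fold minimum, 4 members were higher and 17 lower at 48 h, compared with 12.9% and 13.2% of all genes. The counts were 16 higher and 23 lower at 72 h, compared with 32.4% and 29.5%, and 11 higher and 16 lower at 240 h, compared with 23.4% and 21.7%. The median log2 fold change of the 16 tubulins was -0.23 at 48 h, -0.22 at 72 h and -0.04 at 240 h, that of the 39 kinesins was 0.02, 0.06 and 0.02, and that of all genes tested 0.01, 0.02 and 0.01. The tubulin median at 72 h was -0.13 without replicate 1 of 72 h kd, and that at 240 h was -0.07 without replicate 1 and 0.00 without replicate 3 of 240 h ctrl. The kinesin median at 72 h turned to -0.07 against the 240 h ctrl libraries, to -0.03 on the log2(FPKM + 0.1) scale and to -0.01 with median centring. At 48 h it was -0.01 without replicate 2 of 48 h kd and also without replicate 3 of 48 h ctrl. At 240 h it was -0.05 with a gene span and GC trend removed. Without the 48 h kd library that stood apart, the tubulin median at 48 h was -0.13. By the adjusted p alone, 6 members were then higher and 18 lower (14.4% and 16% of the 16051 genes in that fit), the higher ones including Tubb3 and Tuba1a. With the fold minimum 2 members rose and 5 fell (3.61% and 5.44%), and 4 of these 7 were among the 5 above. Tuba4a was lost, and Kif27, Kif1a and Kifc3 were gained.

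In all, 17 of 56 members were called in at least 1 of the 3 knockdown comparisons, compared with 31.3% of the 15746 genes tested in all 3. Tuba4a, Tubb4a, Kif5c and Kif26b were lower in all 3 and no member was higher in all 3, against 2.31% and 1.69% of these genes. Another 3 were called in exactly 2 comparisons (7.84% of genes), 10 in exactly 1 (19.3%), and 39 in none (68.7%). The 48 h and 72 h comparisons share their ctrl libraries.

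**Figure D2:**
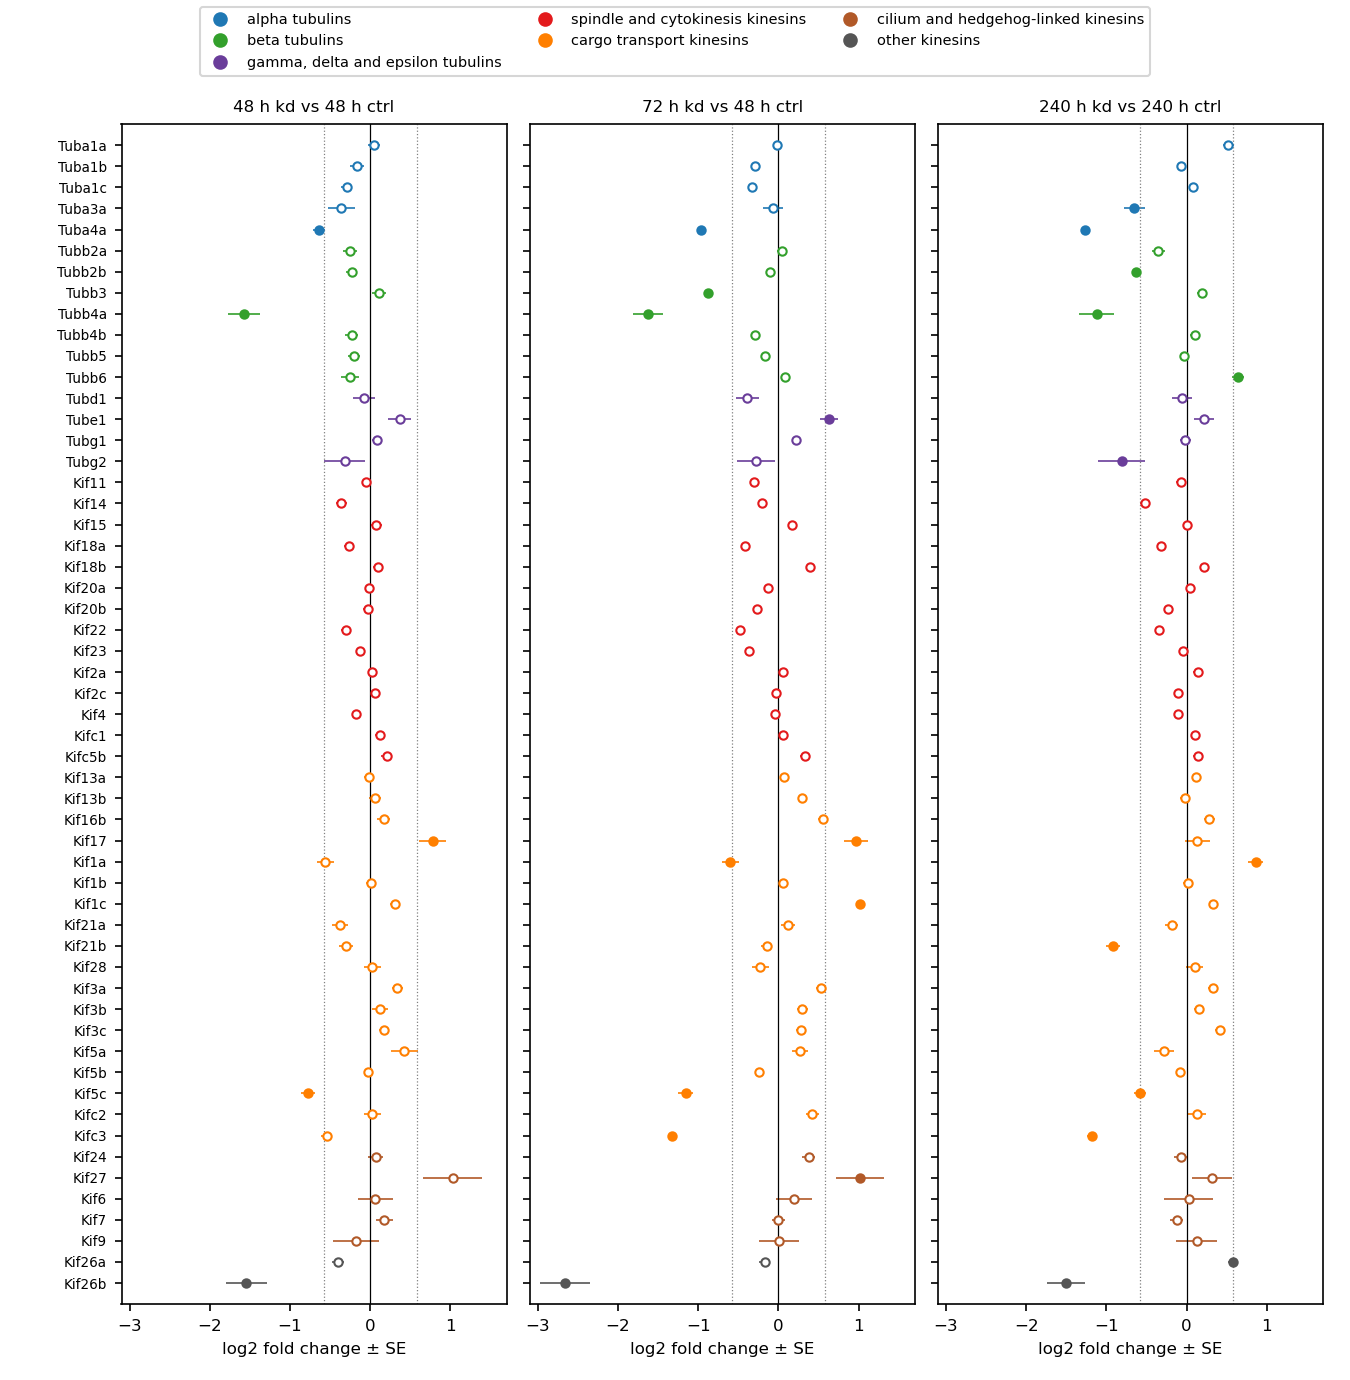
Log2 fold change ± SE of the 55 tubulin and kinesin genes followed in the 3 knockdown comparisons, coloured by role. Filled points were called (adjusted p below 0.05 and absolute log2 fold change above 0.58, dotted lines), and all 14 spindle and cytokinesis kinesins are open at each time.

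Among the alpha tubulins, Tuba4a fell at every time. Tuba4a is an isotype known from brain, muscle and platelets, and it lies at chr1:75214228-75219865 (GRCm38, ENSMUSG00000026202.13) on the minus strand. It was at 28.3, 32.9 and 32.9 FPKM in the 48 h ctrl libraries, 20.9, 18.1 and 21.4 in the 48 h kd libraries, 15.2, 16.01 and 16.8 in the 72 h kd libraries, 28.4, 31.1 and 31.3 in the 240 h ctrl libraries, and 11.9, 13.04 and 12.7 in the 240 h kd libraries. The values of each kd group lay below all 6 ctrl values, and those at 240 h were the lowest. The log2 fold changes were -0.64 ± 0.07 SE, adjusted p = 6.14e-05 at 48 h, -0.97 ± 0.05 SE, adjusted p = 1.08e-13 at 72 h and -1.27 ± 0.05 SE, adjusted p = 4.82e-12 at 240 h. Without the 48 h kd library that stood apart, the 48 h value was -0.56 and passed the adjusted p but not the fold minimum. Stk16 overlaps Tuba4a on the opposite strand over 1379 bases, and 33.4% of the 75-base windows of Tuba4a exons are also found in it. Stk16 had log2 fold changes of -0.06, -0.05 and -0.20 in the same comparisons.

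Tuba3a, a testis-associated alpha tubulin, was called at 240 h only. It was at 1.14, 1.24 and 1.32 FPKM in the 240 h ctrl libraries, and 0.820, 0.869 and 0.662 in the 240 h kd libraries, without overlap (-0.65 ± 0.13 SE, adjusted p = 6.73e-04). Without replicate 3 of 240 h kd the log2 fold change was -0.54 and the call was lost. The gene 4930417O13Rik covers the whole Tuba3a span on the other strand and had a log2 fold change of -0.68, and the reads of both cannot be told apart.

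The 3 most abundant alpha tubulins, which form the bulk of alpha tubulin in most cells, were not called with all libraries. Tuba1a was at 58.7, 62.8 and 64.9 FPKM in the 48 h ctrl libraries, 69.5, 55.1 and 68.7 in the 48 h kd libraries, 55.8, 63.9 and 65.4 in the 72 h kd libraries, 51.2, 60.3 and 64.9 in the 240 h ctrl libraries, and 80.7, 86.9 and 84.3 in the 240 h kd libraries. The 240 h kd values lay above all others, with a log2 fold change of 0.52 ± 0.06 SE, adjusted p = 4.63e-06, below the fold minimum, while the values were 0.05 ± 0.08 at 48 h and -0.01 ± 0.05 at 72 h. Without replicate 3 of 240 h ctrl the 240 h value was 0.59 and Tuba1a was called. Without the 48 h kd library that stood apart, the 48 h value was 0.15 ± 0.05 SE, adjusted p = 0.0124. Tuba1b was lower at 72 h by the adjusted p alone (-0.29 ± 0.04), and Tuba1c at 48 h and 72 h (-0.29 ± 0.07 and -0.33 ± 0.05). Of the 75-base windows in the exons of Tuba1a, Tuba1b and Tuba1c, 70.4%, 70.0% and 48.9% occur in other genes, Tuba1c among them for Tuba1a and Tuba1b, so that the split of reads among these 3 genes is uncertain.

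Among the beta tubulins, Tubb4a had the largest fold change at all times. Tubb4a is known from neurons and oligodendrocytes and lies at chr17:57080066-57087782 (GRCm38, ENSMUSG00000062591.5) on the minus strand. It was a low gene here, with 79, 73 and 62 reads in the 48 h ctrl libraries, 24, 18 and 25 in the 48 h kd libraries, 24, 27 and 21 in the 72 h kd libraries, 42, 45 and 64 in the 240 h ctrl libraries, and 23, 21 and 30 in the 240 h kd libraries. No kd library reached the lowest ctrl library. In log2 units the changes were -1.58 ± 0.20 SE, adjusted p = 9.62e-05 at 48 h, -1.63 ± 0.19 SE, adjusted p = 6.43e-08 at 72 h and -1.12 ± 0.22 SE, adjusted p = 4.86e-04 at 240 h. The 240 h ctrl libraries were themselves lower than the 48 h ctrl libraries (-0.57 ± 0.17 SE, adjusted p = 0.0365).

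Tubb3 encodes the class III isotype used as a neuronal marker and lies at chr8:123411424-123422015 (GRCm38, ENSMUSG00000062380.4) on the plus strand. It was at 12.6, 13.8 and 13.7 FPKM in the 48 h ctrl libraries, 15.9, 12.04 and 15.5 in the 48 h kd libraries, 7.16, 7.12 and 7.49 in the 72 h kd libraries, 11.99, 12.8 and 14.4 in the 240 h ctrl libraries, and 14.7, 15.5 and 14.4 in the 240 h kd libraries. The 72 h kd libraries were the lowest of all, and the 48 h kd libraries overlapped their controls through replicate 2, the library that stood apart. Without it both kd values lay above the ctrl values, and the 48 h log2 fold change was 0.23 ± 0.05 SE, adjusted p = 7.11e-04. Tubb3 fell at 72 h (-0.88 ± 0.05 SE, adjusted p = 5.71e-14), whereas the log2 fold change was 0.11 ± 0.09 SE, adjusted p = 0.41 at 48 h and 0.19 ± 0.06 SE, adjusted p = 0.015 at 240 h, the latter higher and below the fold minimum. From 48 h to 72 h within the kd libraries it fell (-0.99 ± 0.09 SE, adjusted p = 4.21e-06). Tubb3 lies wholly inside the longer gene Gm20388 on the same strand, whose value includes Tubb3 reads. Over 12 neuronal markers, 1 of which (Dcx) had 0 to 3 reads per library, the summed level was 602 to 618 RPM at 48 h ctrl, 640 to 684 at 48 h kd, 633 to 636 at 72 h kd, 591 to 638 at 240 h ctrl and 676 to 689 at 240 h kd. Most of this sum was Stmn2 and Ina. At 72 h kd 5 of the markers (Stmn2, Ina, Syp, Snap25 and Elavl4) lay above their 48 h ctrl values and 6 (Nefl, Nefm, Gap43, Elavl3, Map2 and Rbfox3) below, without overlap. Syp went from 0.159 to 0.251 FPKM at 48 h ctrl to 0.444 to 0.535 at 72 h kd. Nefl went from 7.76 to 8.70 at 48 h ctrl to 2.19 to 2.30 at 72 h kd, Nefm from 1.03 to 1.15 at 48 h ctrl to 0.316 to 0.330 at 72 h kd, Gap43 from 0.360 to 0.392 at 48 h ctrl to 0.119 to 0.149 at 72 h kd, and Elavl3 from 0.921 to 0.960 at 48 h ctrl to 0.315 to 0.466 at 72 h kd. Nefl and Nefm were also lower at 240 h kd (3.16 to 3.55 and 0.525 to 0.582 FPKM), where Tubb3 was not. The part of these cells in the Tubb3 values was not tested.

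Tubb2b and Tubb6 moved in opposite directions at 240 h. Tubb2b, prominent in the developing brain, was at 56.5, 56.9 and 60.5 FPKM in the 48 h ctrl libraries, 52.3, 43.6 and 53.03 in the 48 h kd libraries, 53.2, 54.96 and 53.5 in the 72 h kd libraries, 55.7, 54.4 and 61.6 in the 240 h ctrl libraries, and 36.9, 37.8 and 36.4 in the 240 h kd libraries. Its 240 h kd values were the lowest of all groups (-0.63 ± 0.05 SE, adjusted p = 1.75e-08), while the 48 h and 72 h changes were -0.23 ± 0.07 and -0.11 ± 0.04. Without replicate 3 of 240 h ctrl the 240 h value was -0.57 and the call was lost. Tubb2a, its near-identical neighbour, was lower at 240 h by the adjusted p alone (-0.35 ± 0.08). Of the 75-base exon windows of Tubb2a, 43.2% occur in another gene, mainly Tubb2b. Of those of Tubb2b, 30.2% occur in other genes, mainly Tubb2a, so that the split of reads between them is uncertain.

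Tubb6, a widely expressed beta tubulin, was at 6.74, 7.77 and 8.19 FPKM in the 48 h ctrl libraries, 6.87, 5.14 and 7.26 in the 48 h kd libraries, 8.23, 7.76 and 8.07 in the 72 h kd libraries, 5.29, 6.27 and 6.92 in the 240 h ctrl libraries, and 9.06, 10.05 and 9.62 in the 240 h kd libraries. At 240 h the kd values lay above the ctrl values (0.64 ± 0.07 SE, adjusted p = 2.05e-06). At 48 h and 72 h its values overlapped those of the controls (-0.25 ± 0.11 and 0.09 ± 0.06). Without replicate 1 of 240 h ctrl the 240 h value was 0.54, and the call was lost. The summed level of 6 fibroblast markers, 3 of which had under 10 reads on average, moved with it, from 9.30 to 10.8 RPM at 240 h ctrl to 21.9 to 27.1 at 240 h kd. Most of this rise was Col1a1, with 52 to 58 reads at 240 h ctrl and 200 to 239 at 240 h kd, while Thy1 went from 0.586 to 0.681 FPKM at 240 h ctrl to 0.438 to 0.467 at 240 h kd and Dcn had 0 or 1 reads. The summed level was also higher for 4 neural progenitor markers, from 57.7 to 60.3 RPM to 124 to 127, and for 5 primitive endoderm markers, from 10.2 to 12.02 RPM to 17.7 to 20.5. Their part in the result was not tested.

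Tubb5 and Tubb4b, which carry most beta tubulin reads, were not called at any time. Tubb5 had log2 fold changes of -0.20 ± 0.08, -0.16 ± 0.04 and -0.04 ± 0.05, lower at 72 h by the adjusted p alone. Without the 48 h kd library that stood apart the 48 h value was -0.11 ± 0.04 SE, adjusted p = 0.0478. Tubb4b had log2 fold changes of -0.23 ± 0.08, -0.29 ± 0.04 and 0.10 ± 0.06, lower at 48 h and 72 h by the adjusted p alone, and its 48 h value without that library was -0.13 ± 0.04 SE, adjusted p = 0.0286.

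The isotype shares, computed from levels per exonic kilobase, followed these changes. Tuba4a made up 12.6% ± 0.379 of alpha tubulin (SD, n = 3) at 48 h ctrl, 9.03% ± 0.345 at 48 h kd, 7.70% ± 0.109 at 72 h kd, 12.8% ± 0.472 at 240 h ctrl and 5.01% ± 0.0665 at 240 h kd. The Tuba1a share was 35.3% ± 0.371, 40.5% ± 0.614, 41.7% ± 1.45, 34.9% ± 1.53 and 47.2% ± 0.0876 in the same order. Among beta tubulins Tubb5 kept the largest share, between 59.7% and 64.6% in every library. The Tubb3 share was 6.72% ± 0.0798 at 48 h ctrl, 8.27% ± 0.304 at 48 h kd and 4.22% ± 0.0370 at 72 h kd, against 6.83% ± 0.144 and 7.87% ± 0.151 at 240 h ctrl and kd. Shares within a family sum to 100%, so that a fall of one isotype raises the share of the others.

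**Figure D3:**
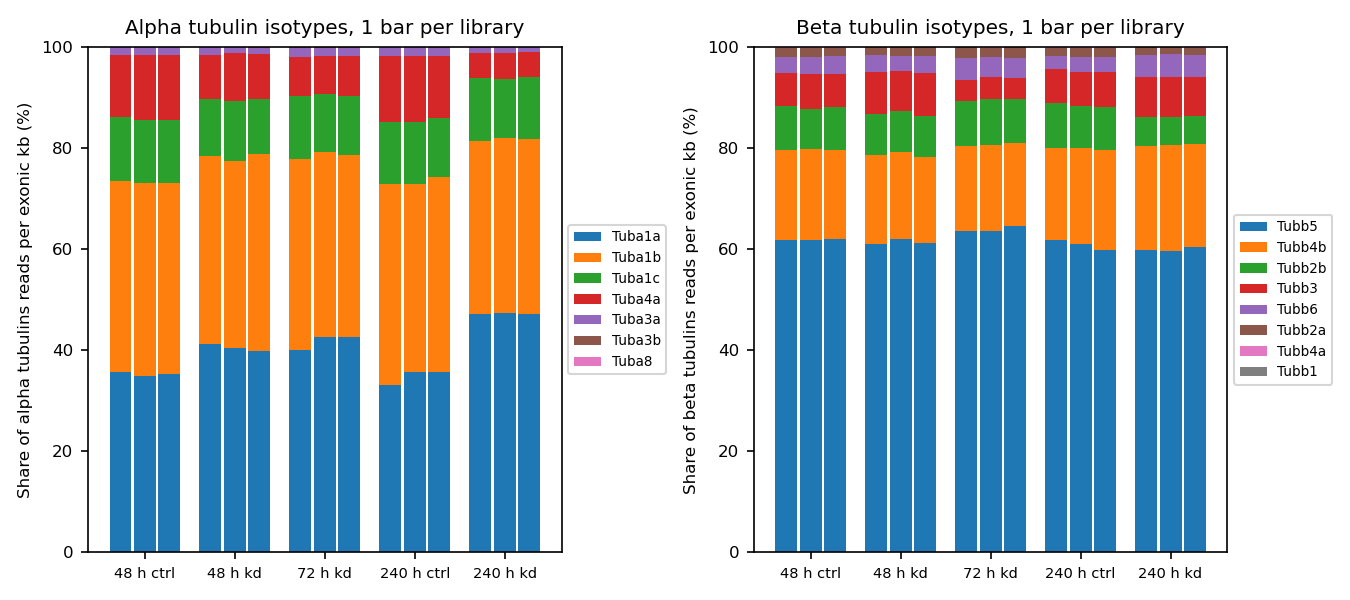
Share of each isotype in alpha tubulin (left) and beta tubulin (right) reads per exonic kilobase, in percent, with 1 bar per library. The Tuba4a band shrinks from 12.8% to 5.01% between the 240 h ctrl and 240 h kd means, and the Tubb3 band is narrowest at 72 h kd (4.22%).

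Of the gamma, delta and epsilon tubulins, Tubg1, the main gamma tubulin, had log2 fold changes of 0.08 ± 0.06 at 48 h, 0.21 ± 0.05 SE, adjusted p = 6.45e-04 at 72 h and -0.02 ± 0.07 at 240 h. Its paralog Tubg2 was called lower at 240 h from few reads, 22, 28 and 19 reads in the 240 h ctrl libraries, and 9, 18 and 16 in the 240 h kd libraries (-0.81 ± 0.29 SE, adjusted p = 0.0308). This call was lost without replicate 2 of 240 h ctrl (-0.65, adjusted p = 0.139), without replicate 1 of 240 h kd (-0.56) and when genes under 10 reads were kept in the test (adjusted p = 0.0686). Tube1, an epsilon tubulin of the centriole, was at 0.699, 0.496 and 0.666 FPKM in the 48 h ctrl libraries, and 0.997, 0.985 and 0.876 in the 72 h kd libraries (0.63 ± 0.11 SE, adjusted p = 3.46e-05). Without replicate 2 of 48 h ctrl its value was 0.48, and with quantile normalization, median centring or the FPKM scale 0.56, all below the fold minimum. Tubd1, the delta tubulin, was lower at 72 h by the adjusted p alone (-0.39 ± 0.14 SE, adjusted p = 0.0241).

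None of the 14 spindle and cytokinesis kinesins followed was called with the fold minimum in any knockdown comparison. By the adjusted p alone, 1 was higher and 4 lower at 48 h (12.9% and 13.2% of all genes). The counts were 3 higher and 7 lower at 72 h (32.4% and 29.5%), and 1 higher and 6 lower at 240 h (23.4% and 21.7%). Kif18a, which aligns chromosomes, was lower at all 3 times (-0.27 ± 0.06, -0.42 ± 0.06 and -0.32 ± 0.06). So were Kif14, a cytokinesis motor (-0.36 ± 0.06, -0.20 ± 0.05 and -0.52 ± 0.06), and Kif22, which pushes chromosome arms and whose window is shown above (-0.30 ± 0.06, -0.47 ± 0.04 and -0.35 ± 0.05). Kif18a and Kif14 lie outside the rule for named genes and were picked with their values known.

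Kif22 was at 12.5, 13.8 and 13.5 FPKM in the 48 h ctrl libraries, 11.3, 9.86 and 11.1 in the 48 h kd libraries, 9.51, 9.71 and 9.44 in the 72 h kd libraries, 12.8, 12.9 and 13.7 in the 240 h ctrl libraries, and 9.99, 10.6 and 10.4 in the 240 h kd libraries. All kd values lay below all ctrl values. Kif11, the plus-end-directed motor that pushes spindle poles apart, was at 1.63, 1.60 and 1.57 FPKM in the 48 h ctrl libraries, 1.62, 1.58 and 1.44 in the 48 h kd libraries, 1.29, 1.28 and 1.30 in the 72 h kd libraries, 1.88, 1.83 and 2.05 in the 240 h ctrl libraries, and 1.75, 1.85 and 1.87 in the 240 h kd libraries. It was lower at 72 h (-0.30 ± 0.05 SE, adjusted p = 5.30e-06), while the 48 h and 240 h values were -0.05 ± 0.06 and -0.07 ± 0.05. Its 240 h ctrl libraries lay above the 48 h ctrl libraries (0.26 ± 0.06 SE, adjusted p = 0.00597).

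Kif20a, the most abundant kinesin, had log2 fold changes of -0.01 ± 0.05, -0.13 ± 0.04 and 0.04 ± 0.04, Kif20b of -0.03 ± 0.06, -0.26 ± 0.04 and -0.23 ± 0.04, and Kif2c of 0.06 ± 0.05, -0.03 ± 0.04 and -0.11 ± 0.04. Kifc1, the minus-end-directed motor that focuses spindle poles, had log2 fold changes of 0.12 ± 0.05, 0.06 ± 0.04 and 0.10 ± 0.05, and 26.1% of its 75-base exon windows occur in other genes, mainly its copy Kifc5b. Over all 14, the log2 fold changes ranged from -0.36 (Kif14) to 0.21 (Kifc5b) at 48 h, from -0.47 (Kif22) to 0.40 (Kif18b) at 72 h and from -0.52 (Kif14) to 0.22 (Kif18b) at 240 h.

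Of the 18 cargo transport kinesins, 1 was called higher and 1 lower at 48 h (4.33% and 4.92% of all genes), 2 higher and 3 lower at 72 h (12.3% and 10%), and 1 higher and 3 lower at 240 h (9.78% and 7.99%). The Kif5 genes encode the heavy chains of conventional kinesin. Kif5c, known from neurons, lies at chr2:49619298-49774778 (GRCm38, ENSMUSG00000026764.15) on the plus strand and was at 0.212, 0.195 and 0.211 FPKM in the 48 h ctrl libraries, 0.119, 0.135 and 0.107 in the 48 h kd libraries, 0.105, 0.0797 and 0.0930 in the 72 h kd libraries, 0.210, 0.202 and 0.195 in the 240 h ctrl libraries, and 0.149, 0.132 and 0.125 in the 240 h kd libraries. Every kd value lay below every ctrl value. These were log2 fold changes of -0.78 ± 0.09 SE, adjusted p = 6.67e-05 at 48 h, -1.16 ± 0.09 SE, adjusted p = 6.54e-11 at 72 h and -0.58 ± 0.08 SE, adjusted p = 1.09e-05 at 240 h. The 240 h value stood at the edge of the fold minimum, and it was -0.56 without replicate 1 of 240 h ctrl, -0.57 without replicate 2 and -0.53 without replicate 3 of 240 h kd, and -0.58 with a pseudocount of 5 reads, each short of it.

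Kif5b, the ubiquitous heavy chain, was lower at 72 h by the adjusted p alone (-0.24 ± 0.04 SE, adjusted p = 1.04e-05) and was at -0.02 ± 0.05 on the log2 scale at 48 h and -0.08 ± 0.04 at 240 h. Kif5a, the other neuronal heavy chain, had a wide spread, with 0.478, 0.352 and 0.385 FPKM in the 48 h ctrl libraries, 0.440, 0.725 and 0.494 in the 48 h kd libraries, 0.477, 0.537 and 0.442 in the 72 h kd libraries, 0.696, 0.608 and 0.446 in the 240 h ctrl libraries, and 0.451, 0.457 and 0.511 in the 240 h kd libraries. Its groups overlapped in all 3 knockdown comparisons (0.43 ± 0.16, 0.27 ± 0.10 and -0.28 ± 0.12), and only the 72 h value passed the adjusted p.

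Kifc3, a minus-end-directed motor linked to cell junctions and the Golgi, lies at chr8:95099828-95202812 (GRCm38, ENSMUSG00000031788.14) on the minus strand. It was at 0.828, 0.822 and 0.919 FPKM in the 48 h ctrl libraries, 0.541, 0.623 and 0.602 in the 48 h kd libraries, 0.325, 0.339 and 0.362 in the 72 h kd libraries, 0.856, 0.858 and 0.838 in the 240 h ctrl libraries, and 0.385, 0.360 and 0.377 in the 240 h kd libraries. The kd values lay below all ctrl values at each time, and those at 72 h and 240 h below those at 48 h. By limma, the log2 fold changes were -0.54 ± 0.07 SE, adjusted p = 1.09e-04 at 48 h, -1.32 ± 0.06 SE, adjusted p = 1.58e-15 at 72 h and -1.18 ± 0.05 SE, adjusted p = 1.30e-11 at 240 h. The 48 h value did not reach the fold minimum with all libraries and was -0.58, past it, without the 48 h kd library that stood apart. The antisense genes Gm31224, Gm45812 and Gm31036 lie within Kifc3 with 13 to 61.7 reads on average, and their reads could not be told from those of Kifc3.

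The Kif1 genes carry vesicles and mitochondria. Kif1a, the motor of synaptic vesicle precursors, was the only member called in opposite directions, as were 1.09% of the 15746 genes tested at all 3 times. It was at 0.147, 0.147 and 0.144 FPKM in the 48 h ctrl libraries, 0.0974, 0.102 and 0.0971 in the 48 h kd libraries, 0.102, 0.0992 and 0.0871 in the 72 h kd libraries, 0.160, 0.134 and 0.139 in the 240 h ctrl libraries, and 0.256, 0.250 and 0.283 in the 240 h kd libraries. The 48 h and 72 h kd libraries lay below all ctrl libraries, and the 240 h kd libraries lay above them. Log2 fold changes amounted to -0.56 ± 0.10 SE, adjusted p = 0.00171 at 48 h, -0.60 ± 0.11 SE, adjusted p = 3.99e-05 at 72 h and 0.86 ± 0.09 SE, adjusted p = 8.23e-07 at 240 h. The 72 h call was lost without replicate 3 of 72 h kd (-0.53). At 48 h the value was -0.58 without the 48 h kd library that stood apart, which brought it past the fold minimum.

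Kif1c, which carries mRNA and integrin vesicles, was at 1.96, 1.85 and 1.95 FPKM in the 48 h ctrl libraries, 2.53, 2.30 and 2.32 in the 48 h kd libraries, 3.87, 3.93 and 3.87 in the 72 h kd libraries, 2.11, 2.08 and 1.97 in the 240 h ctrl libraries, and 2.43, 2.67 and 2.66 in the 240 h kd libraries. The kd values lay above the ctrl values at all times and were highest at 72 h. Kif1c rose at 72 h (1.02 ± 0.04 SE, adjusted p = 2.31e-15), and the log2 fold changes were 0.31 ± 0.06 SE, adjusted p = 0.00214 at 48 h and 0.33 ± 0.06 SE, adjusted p = 1.01e-04 at 240 h. From 48 h to 72 h of knockdown it rose (0.71 ± 0.05 SE, adjusted p = 1.25e-06), a call that was lost when a trend with gene span and GC content was removed (0.56). Kif1b had log2 fold changes of 0.01 ± 0.06, 0.06 ± 0.05 and 0.02 ± 0.06.

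Kif17, a dendritic and ciliary motor, rose early. It was at 0.0976, 0.0718 and 0.0874 FPKM in the 48 h ctrl libraries, 0.133, 0.177 and 0.135 in the 48 h kd libraries, 0.153, 0.168 and 0.183 in the 72 h kd libraries, 0.0718, 0.0772 and 0.0864 in the 240 h ctrl libraries, and 0.0795, 0.0936 and 0.0855 in the 240 h kd libraries. At 48 h and 72 h the kd values lay above all ctrl values, while at 240 h the groups overlapped. The log2 fold changes were 0.78 ± 0.17 SE, adjusted p = 0.00463 at 48 h, 0.97 ± 0.15 SE, adjusted p = 3.95e-06 at 72 h and 0.13 ± 0.16 SE, adjusted p = 0.52 at 240 h. Sh2d5 lies within Kif17 on the same strand over 10898 bases and had log2 fold changes of 0.60, 0.51 and 0.05, so that the reads of both cannot be told apart.

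Kif21b, a motor that limits microtubule growth, was at 0.626, 0.594 and 0.618 FPKM in the 48 h ctrl libraries, 0.454, 0.545 and 0.494 in the 48 h kd libraries, 0.548, 0.564 and 0.545 in the 72 h kd libraries, 0.714, 0.688 and 0.617 in the 240 h ctrl libraries, and 0.324, 0.389 and 0.353 in the 240 h kd libraries. It was lowest at 240 h kd, without overlap (-0.92 ± 0.09 SE, adjusted p = 1.45e-07), and the log2 fold changes were -0.30 ± 0.08 at 48 h, passing the adjusted p, and -0.15 ± 0.07 at 72 h. Kif3a, a subunit of the heterotrimeric kinesin that builds cilia, was higher at all 3 times by the adjusted p without reaching the fold minimum (0.34 ± 0.07, 0.54 ± 0.06 and 0.33 ± 0.06). Its partners Kif3b and Kif3c had log2 fold changes of 0.12 ± 0.10 and 0.18 ± 0.06 at 48 h, 0.30 ± 0.07 and 0.28 ± 0.06 at 72 h, and 0.16 ± 0.06 and 0.41 ± 0.07 at 240 h. The remaining cargo kinesins (Kif13a, Kif13b, Kif16b, Kif21a, Kif28 and Kifc2) were not called, with log2 fold changes between -0.38 (Kif21a at 48 h) and 0.55 (Kif16b at 72 h). Kif16b passed the fold minimum at 72 h without replicate 1 of 48 h ctrl (0.60), against the 240 h ctrl libraries (0.60) and with the gene span and GC trend removed (0.68).

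**Figure D4:**
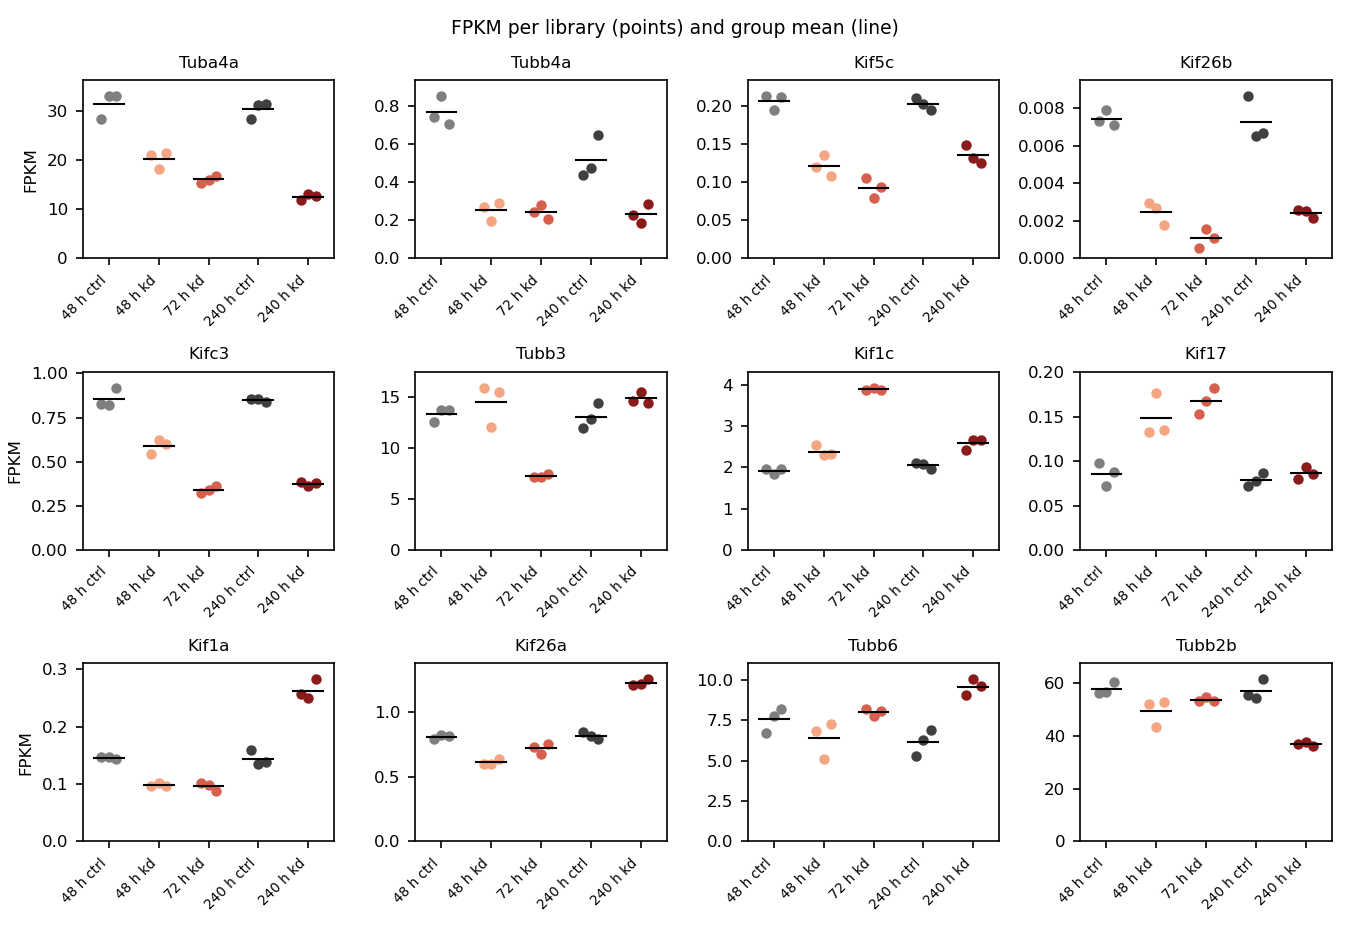
FPKM per library (points) and group mean (line) of 12 members, each on an axis that starts at 0. Tuba4a, Tubb4a, Kif5c and Kif26b are lower in all kd groups, Tubb3 is lowest at 72 h kd, and Kif1a is lower at 48 h and 72 h kd and higher at 240 h kd.

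Of the 5 cilium and Hedgehog-linked kinesins followed, 1 was called, Kif27, higher at 72 h (12.3% of all genes). It had 44, 9 and 22 reads in the 48 h ctrl libraries, 39, 49 and 37 in the 48 h kd libraries, and 43, 45 and 50 in the 72 h kd libraries (1.02 ± 0.30 SE, adjusted p = 0.00562). The 48 h value was 1.03 ± 0.37 SE, adjusted p = 0.0569, and it passed the threshold without replicate 1 of 48 h ctrl (1.46), without the 48 h kd library that stood apart (0.93), with quantile normalization (1.03), with the gene span and GC trend removed (1.09) and in 1 fit of all 15 libraries (1.03). Without replicate 2 of 48 h ctrl the 72 h value was 0.51 with an adjusted p of 0.0645. The antisense gene Gm26555 overlaps Kif27 over 11644 bases and had a log2 fold change of 1.02 at 72 h. The summed level of 6 multiciliated cell markers, 2 of which had under 10 reads on average, was 41.3 to 46.0 RPM at 48 h ctrl, 54.6 to 65.8 at 48 h kd and 60.2 to 70.8 at 72 h kd. At 72 h kd this rise came from Foxj1, with 74 to 96 reads at 48 h ctrl and 428 to 440 at 72 h kd. Rsph1 went from 0.427 to 0.583 at 48 h ctrl to 0.283 to 0.391 at 72 h kd FPKM and Tppp3 from 1.73 to 2.12 at 48 h ctrl to 1.03 to 1.71 at 72 h kd. Their part in the Kif27 values was not tested. Kif7, a regulator of Gli factors, had log2 fold changes of 0.18 ± 0.11, -0.00 ± 0.08 and -0.12 ± 0.08. Kif6 and Kif9, known from motile cilia, were not called, nor was Kif24, an inhibitor of cilium formation, which was higher at 72 h by the adjusted p alone (0.38 ± 0.08).

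The atypical kinesins Kif26a and Kif26b, which bind microtubules without being ordinary motors, moved differently. Kif26b lies at chr1:178529125-178939200 (GRCm38, ENSMUSG00000026494.12) on the plus strand, a span of 410.1 kilobases, and had 41, 36 and 33 reads in the 48 h ctrl libraries, 14, 13 and 8 in the 48 h kd libraries, 3, 8 and 6 in the 72 h kd libraries, 44, 33 and 35 in the 240 h ctrl libraries, and 14, 15 and 12 in the 240 h kd libraries. Every kd library had fewer reads than every ctrl library. In log2 units the changes were -1.54 ± 0.25 SE, adjusted p = 6.80e-04 at 48 h, -2.66 ± 0.31 SE, adjusted p = 9.63e-08 at 72 h and -1.51 ± 0.24 SE, adjusted p = 5.64e-05 at 240 h. In FPKM, where the span divides the reads, Kif26b was at most 0.00863 in all libraries.

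Kif26a was at 0.790, 0.822 and 0.815 FPKM in the 48 h ctrl libraries, 0.601, 0.597 and 0.635 in the 48 h kd libraries, 0.732, 0.674 and 0.750 in the 72 h kd libraries, 0.846, 0.816 and 0.787 in the 240 h ctrl libraries, and 1.21, 1.21 and 1.25 in the 240 h kd libraries. Its 48 h kd values lay below and its 240 h kd values above all ctrl values. These were log2 fold changes of -0.40 ± 0.07 SE, adjusted p = 0.00148 at 48 h, -0.17 ± 0.07 SE, adjusted p = 0.0334 at 72 h and 0.58 ± 0.06 SE, adjusted p = 7.66e-07 at 240 h. The 240 h call stood at the fold minimum and was lost in 6 of the 16 alternatives run. These were the fits without replicate 3 of 240 h ctrl (0.56) and without replicate 3 of 240 h kd (0.57), a pseudocount of 5 reads and median centring (both 0.58 and just under the minimum), the FPKM scale (0.53) and removal of a trend with gene span and GC content (0.51). Kif1bp, the kinesin-binding protein gene, had log2 fold changes of -0.13 ± 0.06, -0.15 ± 0.06 and 0.04 ± 0.06.

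A difference of the knockdown effect at 240 h from that at 48 h was tested by an interaction term over 12 libraries. Of 56 members, 3 were called with a higher effect at 240 h and 4 with a lower one, compared with 5.44% and 5.06% of all 16403 genes. Without the fold minimum the counts were 6 and 6, compared with 10.4% and 9.94%. Kif1a (1.42 ± 0.13 SE, adjusted p = 3.61e-07), Kif26a (0.99 ± 0.09 SE, adjusted p = 2.17e-07) and Tubb6 (0.89 ± 0.16 SE, adjusted p = 4.71e-04) had negative 48 h and positive 240 h values. Kifc3 (-0.64 ± 0.09 SE, adjusted p = 2.67e-05), Tuba4a (-0.63 ± 0.10 SE, adjusted p = 1.54e-04) and Kif21b (-0.62 ± 0.12 SE, adjusted p = 0.00132) were lower at 48 h and lower still at 240 h. Kif5a had a positive 48 h and a negative 240 h value (-0.70 ± 0.24 SE, adjusted p = 0.0441), neither of which was called on its own. Without the 48 h kd library that stood apart, the Kif5a and Kif21b terms were -0.49 and -0.55 and were no longer called. In all, the Kif5a call was lost in 8 of the 12 fits that left out 1 library. Kif21b was at -0.57 without replicate 1 of 240 h ctrl and at -0.55 without replicate 1 of 240 h kd, and Tuba4a at -0.56 without replicate 1 of 48 h ctrl, each below the fold minimum. On the FPKM scale the Kif21b and Kifc3 terms were -0.51 and -0.53, also below it. For Tubb4a (0.45 ± 0.30), Kif5c (0.19 ± 0.12) and Kif26b (0.04 ± 0.33) the term was not called. Kif17 (-0.65 ± 0.22 SE, adjusted p = 0.05) was at the threshold and was called under 8 of the alternatives.

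**Figure D5:**
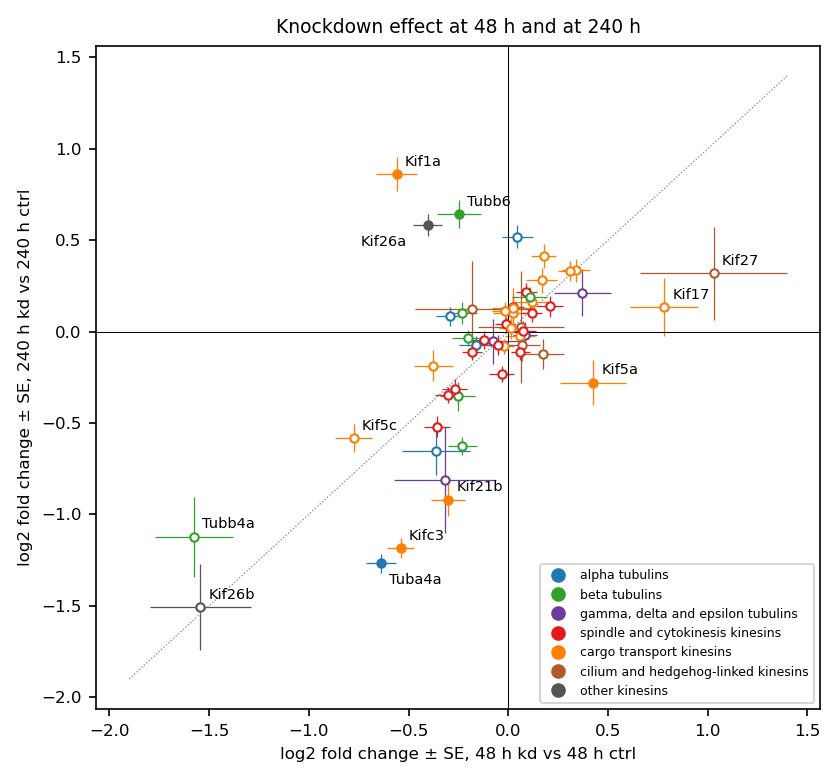
Log2 fold change ± SE at 48 h (horizontal) and at 240 h (vertical) of the 55 tubulin and kinesin genes followed, coloured by role, with filled points for the 7 members whose effect differed by the interaction term and a dotted line of equal effect. Kif1a, Kif26a and Tubb6 lie at the upper left, and Tubb4a, Kif5c and Kif26b lie to the lower left as open points.

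Time without doxycycline was examined in the controls. Between the 240 h and the 48 h ctrl libraries, 0 of 56 members were called by limma and 0 by limma voom. An unadjusted p below 0.05 was found for 22 of the 56 members and for 4586 of all 16215 genes. Over all 16215 genes tested, 0.857% were called higher and 0.506% lower. Without the fold minimum, 8 members were higher and 4 lower, compared with 6.64% and 6.07%. The 8 were all kinesins, 5 of them spindle motors, and the 4 were Tubb4a, Tubb6, Kif3c and Kif28. The count of 12 moved with single libraries, being 4 without replicate 2 and 3 without replicate 3 of 48 h ctrl, 6 without replicate 1 or 2 of 240 h ctrl, and 16 without replicate 3 of 240 h ctrl. It was 0 on the log2(FPKM + 0.1) scale with a minimum of 0.5 FPKM, a setting that also tested fewer genes (11359). Without replicate 3 of 240 h ctrl, Kif5a (0.69) and Tubb4a (-0.74) were called, and without replicate 1 of 48 h ctrl, Kif5a (0.64).

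From 48 h to 72 h within the kd libraries, 1 of 55 members tested was called higher (Kif1c) and 2 lower (Tubb3 and Kifc3), compared with 6.9% and 5.99% of 16104 genes. Without the fold minimum 12 were higher and 9 lower, compared with 23.8% and 19.1%. These 21 became 35 without the 48 h kd library that stood apart, where 49.5% of genes passed. Kif26b had too few reads to be tested there. The Kifc3 value was -0.78 ± 0.07 SE, adjusted p = 4.91e-06, and Tuba4a fell further without reaching the fold minimum (-0.33 ± 0.07 SE, adjusted p = 0.0018).

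Genes that act on tubulin and kinesins were taken from 9 lists. Their counts stand beside shares of all genes called higher and lower of 4.33% and 4.92% at 48 h, 12.3% and 10% at 72 h, and 9.78% and 7.99% at 240 h. None of the 8 genes of the gamma tubulin ring complex was called with the fold minimum at any knockdown time. By the adjusted p alone 3 were higher and 2 lower at 72 h, where 32.4% and 29.5% of all genes were. Of 13 tubulin folding cofactors and chaperonin genes, 1 was called, Tbcel at 72 h (0.70 ± 0.06). Among 16 microtubule-associated and severing genes tested, 3 were called lower at 48 h, and 1 higher and 5 lower at 72 h. At 240 h, 1 was higher and 1 lower among 17 tested.

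The neuronal microtubule stabilisers Map2 and Map6 were among the lower ones. Map2 was at 0.0985 to 0.112 FPKM at 48 h ctrl, 0.0630 to 0.0686 at 48 h kd and 0.0391 to 0.0448 at 72 h kd (-0.71 ± 0.08 SE, adjusted p = 6.73e-05 at 48 h and -1.36 ± 0.09 SE, adjusted p = 2.27e-12 at 72 h). At 240 h its groups overlapped (-0.07 ± 0.09). Map6 was at 0.277 to 0.329, 0.185 to 0.214 and 0.0628 to 0.0871 FPKM in the same groups (-0.61 ± 0.10 SE, adjusted p = 7.71e-04 and -1.99 ± 0.12 SE, adjusted p = 1.40e-12). Map1a was also lower at 48 h (-0.61 ± 0.07) and 72 h (-0.88 ± 0.07). The severing enzymes moved apart, with Fign lower (-0.85 ± 0.15 at 72 h and -0.83 ± 0.16 at 240 h) and Katnal1 higher (0.94 ± 0.12 and 0.71 ± 0.13).

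Of the tubulin modifying enzymes, 1 of 19 tested was called higher and 1 lower at 48 h, 3 of 18 higher and 3 lower at 72 h, and 3 of 19 higher and 3 lower at 240 h. The shares of all genes were 4.33% and 4.92% at 48 h, 12.3% and 10% at 72 h, and 9.78% and 7.99% at 240 h. Vash1 and Vash2 encode the catalytic subunits that remove the C-terminal tyrosine of alpha tubulin. Vash1 was lower at all 3 times (-0.89 ± 0.19 SE, adjusted p = 0.00488 at 48 h, -1.41 ± 0.19 SE, adjusted p = 9.40e-07 at 72 h and -1.46 ± 0.16 SE, adjusted p = 8.09e-07 at 240 h), and Vash2 at 72 h (-1.03 ± 0.09) and 240 h (-1.04 ± 0.11). Hdac6, the tubulin deacetylase, was at 4.54 to 5.06 FPKM at 48 h ctrl and 9.96 to 10.6 at 72 h kd (1.09 ± 0.05 SE, adjusted p = 8.98e-16), and at 4.94 to 5.27 and 10.02 to 10.3 at 240 h ctrl and kd (1.00 ± 0.05 SE, adjusted p = 1.50e-11). Ttll9, of the family that adds glutamate chains, was higher at all 3 times from 13 to 71 reads per library (1.48 ± 0.22, 1.77 ± 0.21 and 1.12 ± 0.25).

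Among 8 plus end proteins, Mapre3, which encodes the neuronal end-binding protein EB3, was higher at 72 h (1.14 ± 0.14 SE, adjusted p = 1.95e-07) and 240 h (0.66 ± 0.14 SE, adjusted p = 8.80e-04), and the linker Clip1 at 72 h (0.72 ± 0.07). Of 3 stathmins tested, Stmn3 was higher at 240 h (0.69 ± 0.12). None of the 10 kinesin light chain and adaptor genes tested was called at any knockdown time. In the 22 dynein and dynactin genes, Dynlt3 was higher (0.86 ± 0.13) and the neuronal intermediate chain gene Dync1i1 lower at 72 h (-0.86 ± 0.28 SE, adjusted p = 0.00985), while Dync1i1 was higher at 240 h (0.90 ± 0.20 SE, adjusted p = 0.00117), with 11 to 61 reads per library. Of 28 mitotic regulators and kinetochore genes, 0 were called at 48 h and at 240 h, and Birc5 (-0.61 ± 0.05) and Nusap1 (-0.59 ± 0.04) were lower at 72 h.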

How the data were processed

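RNA-seq of 15 libraries was analysed. The authors deposited FPKM values per gene; per the labels and the study's methods, reads were aligned with STAR 2.7.0c and analysed with DESeq2 1.30.0 in R 4.0.3. The gene annotation behind the values is not given in the sources used here. The FPKM values of all libraries were whole multiples of 1 read when multiplied by the gene span of the deposited tables (100% of values, tolerance 0.001). That reads were counted over the whole span, introns included, and without strand was inferred from these values and is not stated in the sources used here. The reads summed over genes exceeded the library totals by 7.38% to 8.34%. Introns made up a median of 61.4% of the span in tubulins and 86.6% in kinesins, so that intronic reads would enter both. Genes were matched to GENCODE M21 on GRCm38 (53297 of 55228, and all 63 members).

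Recovered reads were scaled to the library total, 1 read was added, and log2 values were tested, where a gene averaged 10 reads or more, with limma 3.58.1 under R 4.3.3 (lmFit, then eBayes with trend), two-sided, with Benjamini-Hochberg adjustment over all genes tested. Each knockdown comparison was fitted on its 6 libraries. Calls needed an adjusted p below 0.05 and an absolute log2 fold change above 0.58. Values of ± are SE of the fit unless given as SD. Tested on simulated data with 200 genes changed by 2-fold, the procedure recovered 99.5% at 48 h, 99.5% at 72 h and 100% at 240 h. Precision is limited by reads per gene, which are given for low genes.

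Genes named were members called in a knockdown comparison or the interaction, the 5 tubulins and 5 kinesins with the highest level, a fixed set of known members, and up to 3 called genes per direction of each list. The members and lists were chosen with earlier results of these data known. Promoter windows came from RefSeq (GRCm38.p6). Same-numbered libraries showed no steady pairing (correlations of deviations from -0.41 to 0.35 over 12574 genes). Between 48 h ctrl and 240 h ctrl the correlations were 0.35, -0.02 and 0.24 for replicates 1, 2 and 3, so that pairing there is not settled. Alternatives covered pseudocount, scale, read minimum, limma voom, centring, quantile normalization, a span and GC trend, 1 fit of all 15 libraries, the control group at 72 h, a replicate block and leaving out each library.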

Additional observations from a re-analysis of the deposited data

Results flagged for a closer look

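For 7 members the knockdown effect at 240 h differed from that at 48 h by the interaction term of limma, given as the 240 h minus the 48 h log2 fold change. It was higher at 240 h for Kif1a (1.42), Kif26a (0.99) and Tubb6 (0.89). It was lower at 240 h for Kif5a (-0.70), Kifc3 (-0.64), Tuba4a (-0.63) and Kif21b (-0.62). Of all 16403 genes, 5.44% were called with a higher effect at 240 h and 5.06% with a lower one. Under 22 alternatives each, Kif5a stayed called in 11, Kif21b in 18, and Kifc3 and Tuba4a in 21. The 72 h libraries took no part in this test.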

How the results depend on the processing

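Of 638 log2 fold changes of called members under an alternative, 597 stayed called, 41 did not and none turned its direction. Directions of members that were not called were not followed. The kinesin medians did turn, to as low as -0.01 at 48 h, -0.07 at 72 h and -0.05 at 240 h. On the log2(FPKM + 0.1) scale with a minimum of 0.5 FPKM, 2 members were called at 48 h, 5 at 72 h, 6 at 240 h and 3 in the interaction, compared with 5, 11, 12 and 7. With a minimum of 50 reads, 3 were called at 48 h. Leaving out 1 library gave 5 to 7 members at 48 h, 9 to 12 at 72 h, 9 to 11 at 240 h, 0 to 2 between the ctrl groups, 3 to 3 between 72 h and 48 h kd, and 5 to 8 in the interaction. Where this left 1 group with 2 libraries, the spread was pooled. Over all genes, 1490, 3608 and 2956 were called at 48 h, 72 h and 240 h, against 456, 1548 and 1016 on the FPKM scale and 879, 2238 and 1672 with a minimum of 50 reads, which test fewer genes. Against the 240 h ctrl libraries, 12 members were called at 72 h. Kif5a in the interaction missed the threshold with limma voom (adjusted p = 0.0532) and with no minimum (0.0590). Other causes were not tested.

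With the replicate number as a block, the counts of called members were unchanged at 5, 11, 12, 0, 3 and 7. By the adjusted p alone, the block raised the members that differed between the ctrl groups from 12 to 22. Whether the numbers pair the ctrl libraries is not known. Members of few reads, such as Kif26b, Tubg2 and Kif27, are limited by depth.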
